A study of Homo sapiens with 24 samples.

Results

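Expression of 10 genes was followed across transfected human cells. Of these, 6 belong to ISG15 conjugation (ISG15, UBA7, UBE2L6, HERC5, HERC6 and USP18) and 4 to ADP-ribosylation around the PARP9-DTX3L complex (PARP9, DTX3L, PARP12 and PARP14). They were taken as a list of symbols, and all 10 were found by Ensembl identifier among the 60236 genes of the count table. RNA-seq was done in 2 lines, HEK293T (derived from embryonic kidney) and A549 (derived from a lung adenocarcinoma). In each line, cells received 1 of 4 plasmids, with 3 biological replicates per plasmid, for 24 libraries in 8 groups. The study asked how snaR-A, a small noncoding RNA of primates, and the splicing factor SF3B2 change the processing of mRNA.

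The scramble and snaR-A groups of each line carried plasmids in which the U6 promoter drives either a scrambled sequence or snaR-A. The eGFP and SF3B2 groups carried a protein expression plasmid that adds a Flag (DYK) tag to eGFP or to SF3B2. All cells were transfected with Lipofectamine and collected 48 h later, and no untransfected cells were among the samples, so each comparison is between transfected cells. Uptake was transient and was not selected for, so a library mixes cells with and without plasmid. In such bulk RNA, fewer responding cells and less RNA per responding cell cannot be told apart. The eGFP and scramble plasmids differ in their promoter as well as in their product, and these cannot be told apart either.

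ISG15 is a ubiquitin-like protein that is induced by interferon and attached to other proteins. UBA7 activates it, UBE2L6 carries it, HERC5 is the main human ligase, HERC6 is the closest relative of HERC5, and USP18 removes ISG15 again and also restrains signalling from the type I interferon receptor. PARP9 and DTX3L form a complex of a macrodomain protein and a ubiquitin ligase, while PARP12 and PARP14 transfer single ADP-ribose units to proteins. All of these genes are known targets of interferon signalling in epithelial cells.

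The totals lay between 195185935 and 260878271 estimated counts per library, and levels are given as CPM (counts scaled to a common library size, normalized here by the TMM method over the 24 libraries). A library without a single count of a gene could still hold up to 3, which is 0.00965 to 0.0165 CPM. Such limits cover counting error only. SF3B2, part of the U2 snRNP, was at 24053 to 48884 CPM in the 6 SF3B2 libraries. In A549 scramble replicate 3 it was at 8773 CPM, against 371 and 340.03 CPM in the other scramble replicates. Of 12 genes typical of A549, 12 were higher in every A549 library than in every HEK293T library, and of 12 typical of HEK293T, 9 were higher in every HEK293T library, while SALL4 and CRABP1 were higher in A549. For A549 snaR-A replicate 3, some labels name the other line. Its A549 markers summed to 20969.6 CPM, inside the range of the A549 libraries (20872 to 23031 CPM), and its HEK293T markers to 99.8 CPM, inside the range of 93.8 to 104.6 CPM, so it was kept in A549. In HEK293T eGFP replicate 3 the A549 markers summed to 793 CPM, against 17.5 to 40.6 CPM in the other 11 HEK293T libraries, and 12 of 12 lay above the 10 HEK293T libraries other than this one and SF3B2 replicate 3. Its most abundant A549 marker was ALDH1A1, at 422 CPM, and none of the 12 was at 0 counts. HEK293T SF3B2 replicate 3 had the next highest sum, 40.6 CPM, with 9 of the 12 markers above those 10 libraries. For several results that rest on these libraries, values are given with and without them.

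The 10 genes lie on 6 chromosomes of GRCh38 (GENCODE 44). PARP9 (ENSG00000138496, minus strand, chr3:122527924-122564577) and DTX3L (ENSG00000163840, plus strand, chr3:122564338-122575203) are head to head, share 240 bases and start 239 bases apart, and PARP14 (ENSG00000173193, plus strand, chr3:122680839-122730840) follows 105635 bases beyond DTX3L. Whether the quantification used the strand of the reads is not given in the sources used here, so reads of the 240 shared bases cannot be assigned to PARP9 or DTX3L. HERC6 (ENSG00000138642, chr4:88378739-88443097) and HERC5 (ENSG00000138646, chr4:88457119-88506163) lie on the plus strand 14021 bases apart. The other members stand alone: ISG15 (ENSG00000187608, plus strand, chr1:1001138-1014540), UBA7 (ENSG00000182179, minus strand, chr3:49805209-49813953), UBE2L6 (ENSG00000156587, minus strand, chr11:57551656-57568284), PARP12 (ENSG00000059378, minus strand, chr7:140023749-140062951) and USP18 (ENSG00000184979, plus strand, chr22:18150118-18177397). USP18 is the member whose transcripts share most sequence with other genes. Of its 31-base words, 28.7% occur in another gene, 14.7% in USP41, so its counts are less certain than those of ISG15, UBE2L6 and PARP12, which share none.

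Promoter windows reaching from 250 bases before to 50 bases after the start (RefSeq, GRCh38.p14) were at hand for 8 of the 10 members, all but UBA7 and USP18. They are shown because the members moved together in A549. The letters GAAA, any 2 bases and GAAA again, the core of the interferon-stimulated response element, were searched on both strands, overlapping matches included. They occurred in 6 of the 10 windows of these 8 members, 1 each for ISG15, HERC5, PARP9, DTX3L, PARP12 and PARP14. Over all genes they occurred in 1255 of 35116 windows (3.57%). Each line below gives 30 bases on the strand of the gene, with the matched run in capitals.
ISG15, chr1:1013377-1013406, plus strand: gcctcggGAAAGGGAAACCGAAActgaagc
HERC5, chr4:88456987-88457016, plus strand: attacagTTTCCTTTTCCTTTTCgattccg
HERC5, chr4:88457035-88457064, plus strand: aaacattatgTTTCGTTTTCcactggagct
DTX3L, chr3:122564322-122564351, plus strand: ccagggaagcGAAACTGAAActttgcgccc
PARP9, chr3:122564322-122564351, minus strand: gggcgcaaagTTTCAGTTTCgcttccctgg
PARP12, chr7:140062942-140062971, minus strand: ccggggccgcTTTCGGTTTCgtttcccgcc
PARP14, chr3:122680800-122680829, plus strand: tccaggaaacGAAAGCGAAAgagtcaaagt
The ISG15 run is made of 2 overlapping matches and begins 113 bases before the start that the window is set on. The first HERC5 run, also of 2 overlapping matches, begins 125 bases before it, and the PARP14 run 29 bases. PARP9 and DTX3L share a single match, which spans the start of DTX3L, from 6 bases before to 4 bases after it, and lies 41 to 31 bases before the start of 1 of the 2 RefSeq windows of PARP9. The other PARP9 window, which lies farther upstream, had no match, and the match is inside PARP9 as GENCODE 44 places it. No match lay in the windows of UBE2L6 and HERC6, which says only that these letters are not in these bases. A match is a description of the sequence, and binding was not measured.

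With the scramble plasmid, the 4 largest differences between the lines were those of the ADP-ribosylation genes. Of the 10 members, 7 were higher in A549 than in HEK293T with an adjusted p under 0.05 (edgeR's quasi-likelihood test), where 38.2% of 23124 genes were higher, and 1 was lower, where 39.3% of genes were. PARP14 is among the 7, and it could pass the filter on low counts here only through the A549 libraries, where it was higher. Its call therefore adds nothing to this count. PARP14 had 122, 110.3 and 105 CPM in A549, and only 0, 9 and 6 counts in the HEK293T scramble libraries, or at most 0.0315 CPM. PARP12 had 27.7, 25.9 and 24.4 CPM in A549 and 16, 12 and 25 counts, or 0.0553, 0.042 and 0.103 CPM, in HEK293T (log2 fold change 8.57, standard error (SE) 0.23, adjusted p = 7.75e-09, edgeR). For both genes the groups were far apart. DTX3L was at 98.6, 89.3 and 80.5 CPM in A549 and 11.6, 12.6 and 12.4 CPM in HEK293T, and PARP9 was 9.72-fold higher in A549 (log2 3.28, SE 0.12, adjusted p = 3.79e-08, edgeR).

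Among the conjugation genes, ISG15 was 5.59-fold higher in A549 (log2 2.48, SE 0.23, adjusted p = 1.76e-05), UBE2L6 3.39-fold (log2 1.76, SE 0.091) and HERC6 2.90-fold (log2 1.53, SE 0.092). UBA7 was lower in A549, with 0.477, 0.437 and 0.687 CPM against 0.968, 0.661 and 0.964 CPM (log2 -0.75, SE 0.24, adjusted p = 0.0207, edgeR), and the groups overlapped. That call was lost when any 1 of 4 of the 6 libraries was left out, with adjusted p up to 0.0818 (edgeR). HERC5 and USP18 did not pass the test, with log2 differences of 0.10 (95% interval -0.033 to 0.24) and 0.085 (-0.12 to 0.29). With scaling by library size alone, the median of all genes moved from -0.01 to -0.41 and both turned lower in A549, at -0.29 and -0.31. Without A549 scramble replicate 3, the library with raised SF3B2, 9 members were called in place of 8. The calls over all genes went from 17921 to 18366 in that fit.

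Levels of different genes can be compared only per length, here as CPM per kb of the canonical transcript. In A549 scramble libraries the order ran from PARP9 (19.3 ± 2.78, SD, n = 3), DTX3L (15.5 ± 1.58) and PARP14 (14.6 ± 1.13) through UBE2L6 (13.8 ± 0.534) and HERC5 (9.96 ± 0.356) to HERC6 (6.87 ± 0.691), with UBA7 far below at 0.162 ± 0.0407. Neighbours from PARP9 to UBE2L6 overlapped in their libraries, as did PARP12, ISG15 and USP18. In A549 eGFP libraries PARP9 stayed first at 93.9 ± 3.78 CPM per kb, above every library of ISG15 (71.4 ± 19.2), and the genes from ISG15 down to PARP12 (34.3 ± 4.9) each overlapped the next. In HEK293T scramble libraries HERC5 led (8.88 ± 0.198 CPM per kb), followed without overlap by USP18 (7.03 ± 0.556) and UBE2L6 (3.89 ± 0.299). ISG15 stood seventh there, at 1.46 ± 0.0661 CPM per kb. The lowest were UBA7 (0.262 ± 0.0534), PARP12 (0.0221 ± 0.0105) and PARP14 (0.00243 ± 0.00215).

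**Figure D1:**
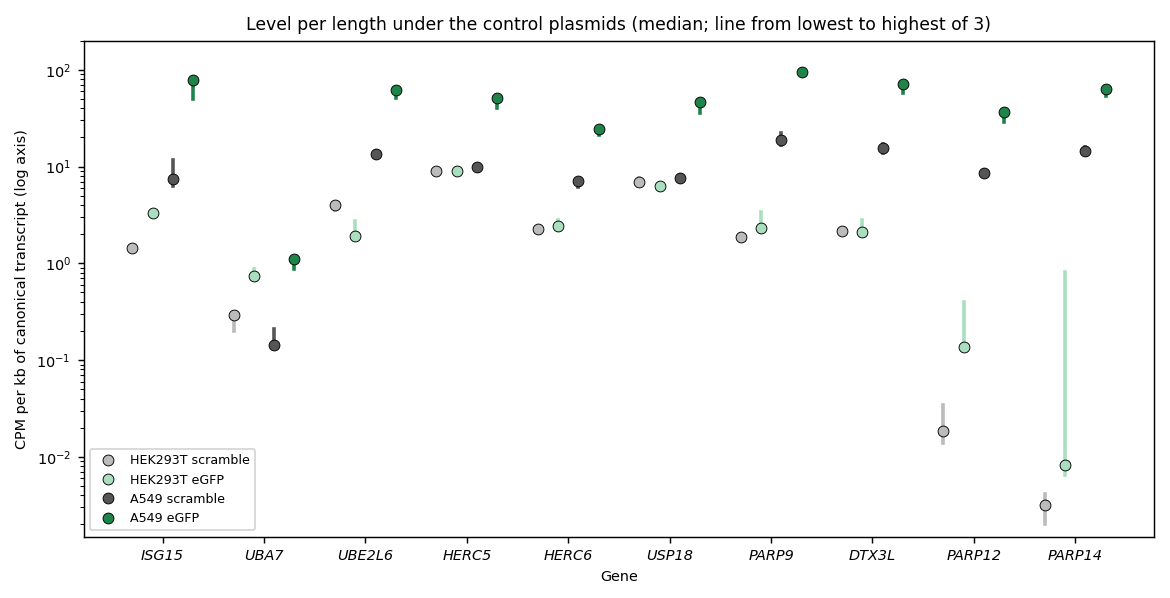
Level per kb of the canonical transcript (CPM per kb, log axis) of each gene under the 2 control plasmids in each line. Points are medians and lines run from the lowest to the highest of 3 libraries; the line of PARP14 in HEK293T scramble, whose lowest library was at 0, is cut near the foot of the axis. In A549 every gene lies higher with eGFP than with scramble, and the medians of PARP12 and PARP14 lie below those of the other genes in HEK293T, where the range of PARP14 with eGFP reaches that of UBA7.

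In A549, all 10 genes were higher with the eGFP plasmid than with the scramble plasmid. Each rose by more than 1 on the log2 scale at an adjusted p under 0.05, from 1.76 for HERC6 to 3.06 for ISG15, with a median of 2.19 against -0.01 over the 21578 genes tested. Of those genes 1.46% were called higher and 0.904% were called higher past that fold. No library of either group overlapped the other for any member, where 7.08% of genes were higher without overlap (two-sided exact permutation test on CPM, p = 0.1 for each, the smallest that 3 libraries against 3 allow). The share of counts from mitochondrial genes was 16.3%, 14.4% and 10% in the scramble libraries and 10.2%, 9.25% and 12.3% in the eGFP libraries, and its part in the result was not tested.

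The modifier itself changed most. ISG15 had 4.04, 4.77 and 7.43 CPM in the scramble libraries and 54.3, 50.6 and 31.5 CPM in the eGFP libraries. Its lowest eGFP library was still far above its highest scramble library, and the fitted rise was 8.36-fold (log2 3.06, SE 0.29, adjusted p = 0.00166, edgeR). UBA7, which activates ISG15, went from 0.477, 0.437 and 0.687 CPM to 3.68, 3.87 and 2.91 CPM, a 6.505-fold rise (log2 2.70, SE 0.21, adjusted p = 0.000624, edgeR). UBA7 was nonetheless the least abundant member per length in both groups. UBE2L6, the conjugating enzyme, went from 16.4, 16.4 and 17.5 CPM to 75.1, 76.2 and 61.9 CPM, 4.22-fold (log2 2.08, SE 0.086, adjusted p = 7.43e-05, edgeR).

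The ligase HERC5 rose from 36.2, 35 and 33.7 CPM to 180.5, 189 and 140.2 CPM, 4.835-fold (log2 2.27, SE 0.11, adjusted p = 8.13e-05, edgeR). HERC6 had the smallest change of the 10, from 28.2, 26.6 and 23.1 CPM to 93.3, 92.4 and 79.7 CPM, or 3.40-fold (log2 1.76, SE 0.093). The protease USP18 rose from 14.1, 13.9 and 15.4 CPM to 85.8, 88.5 and 65.9 CPM, 5.52-fold (log2 2.46, SE 0.12, adjusted p = 8.13e-05, edgeR). Replicate 3 was the lowest of the eGFP libraries for each of the 10 genes, and still above every scramble library.

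The 4 ADP-ribosylation genes rose by similar amounts, from 1.99 to 2.28 on the log2 scale. PARP9 went from 67.5, 57.9 and 50.6 CPM to 288, 297 and 274 CPM, 4.86-fold (log2 2.28, SE 0.11, adjusted p = 8.13e-05, edgeR), and its partner DTX3L from 98.6, 89.3 and 80.5 CPM to 413, 419.6 and 331 CPM, 4.32-fold (log2 2.11, SE 0.11). PARP14, the most abundant member in CPM, went from 122, 110.3 and 105 CPM to 487, 487 and 417 CPM, 4.11-fold (log2 2.04, SE 0.086, adjusted p = 7.43e-05, edgeR). PARP12 went from 27.7, 25.9 and 24.4 CPM to 112, 112 and 86.6 CPM, 3.97-fold (log2 1.99, SE 0.11). Without scramble replicate 3, the library with raised SF3B2, all 10 genes were again called higher, by 1.69 (HERC6) to 3.36 (ISG15) on the log2 scale.

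**Figure D2:**
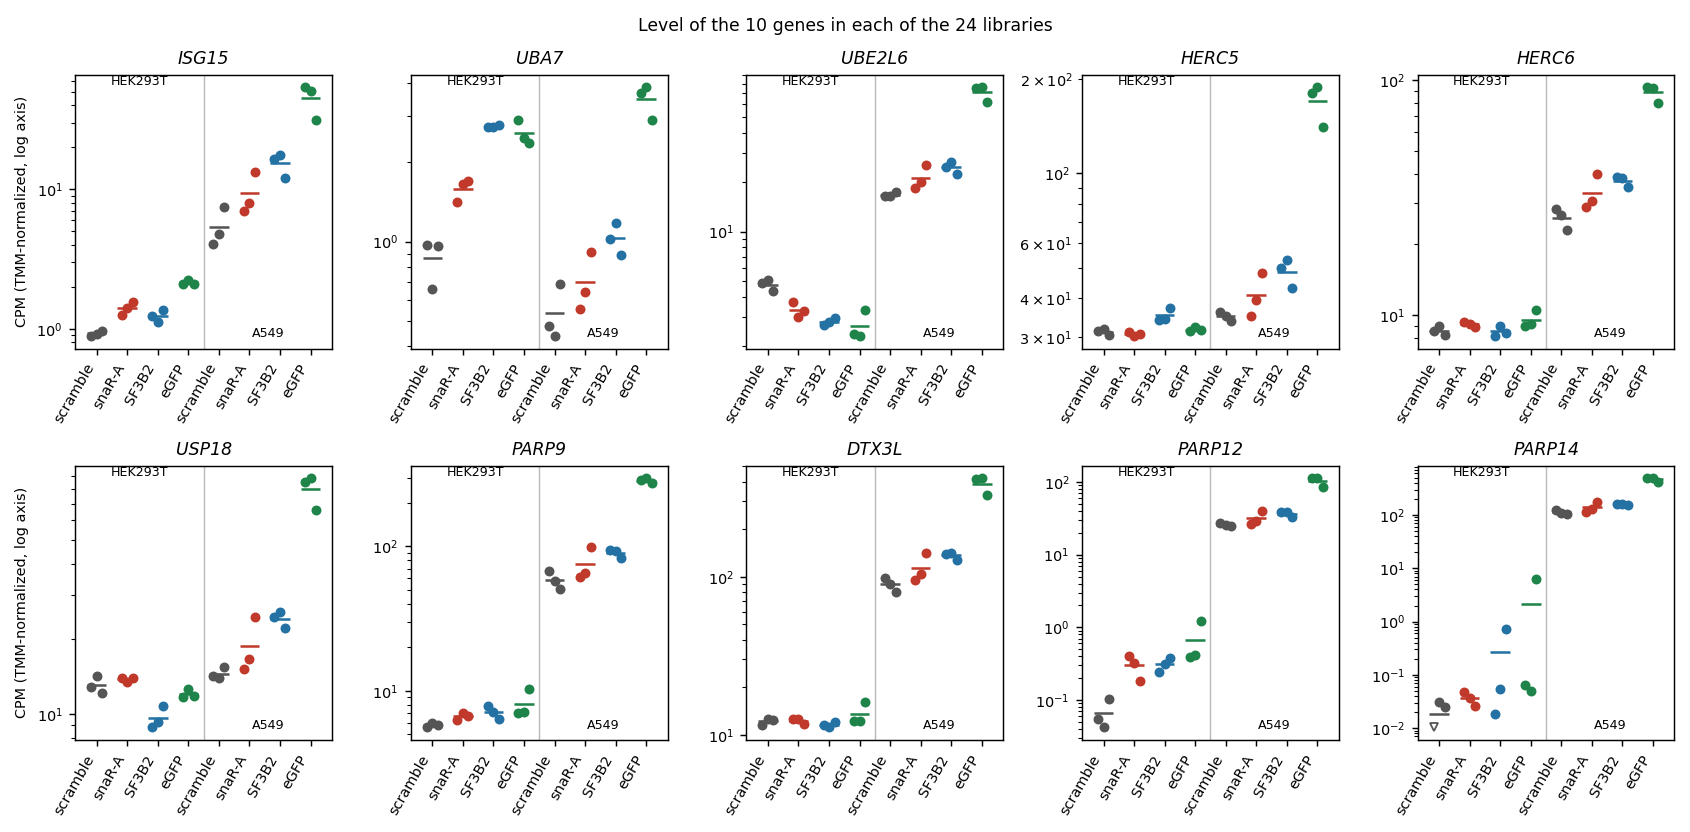
TMM-normalized CPM (log axis) of each gene in each of the 24 libraries, by plasmid, with HEK293T left and A549 right of the grey line. Points are libraries, bars are means of 3, and the open triangle marks a count of 0 drawn at the limit of 3 counts. In A549 the eGFP libraries stand above all others for all 10 genes, with ISG15 at 31.5 to 54.3 CPM, while in HEK293T the genes differ in direction.

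The SF3B2 and eGFP plasmids are of the same kind, each expressing a tagged protein. In A549, all 10 genes were lower with SF3B2 than with eGFP, by more than 1 on the log2 scale (median -1.55, against 0.01 over all genes tested), while 3.6% of 21581 genes were called lower and 0.802% lower past that fold. This comparison uses the same eGFP libraries as the one before, so the 2 are not independent. HERC5 differed most, with 49.9, 52.8 and 43.1 CPM in the SF3B2 libraries (3.46-fold lower, log2 -1.79, SE 0.12, adjusted p = 0.00041, edgeR), and HERC6 least, with 38.6, 38.1 and 35.2 CPM (2.35-fold lower, log2 -1.23, SE 0.066, adjusted p = 0.000185, edgeR). ISG15 was at 16.5, 17.6 and 12 CPM, 2.935-fold lower (log2 -1.55, SE 0.22, adjusted p = 0.00997, edgeR), and was not called without SF3B2 replicate 1 (adjusted p = 0.0524, edgeR). For every member the SF3B2 libraries lay below the eGFP libraries, where 15.7% of genes were lower without overlap. PARP9 had 94.3, 93.6 and 83.7 CPM with SF3B2 (log2 -1.65, SE 0.054), DTX3L 140.1, 142 and 127 CPM (log2 -1.49, SE 0.092) and PARP14 159, 162 and 153 CPM (log2 -1.54, SE 0.063). These 3 neighbours on chromosome 3 differed by similar amounts, as did ISG15 and UBE2L6 on other chromosomes. UBA7, also on chromosome 3, had a larger value. Among the enzymes of ISG15, UBA7 was at 1.02, 1.17 and 0.892 CPM (log2 -1.75, SE 0.15), UBE2L6 at 24.8, 26.7 and 22.3 CPM (log2 -1.52, SE 0.093) and USP18 at 24.5, 25.7 and 22.1 CPM (log2 -1.72, SE 0.11). PARP12 was at 38, 38.9 and 33.4 CPM (log2 -1.48, SE 0.11).

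With the scramble libraries as the reference, the SF3B2 libraries of A549 lay between scramble and eGFP. All 10 genes were higher than in scramble in every library, where 8.61% of 21461 genes were higher without overlap, and the median log2 fold change was 0.59. The test called 4 of them, against 0.214% of genes called higher: USP18 (0.74, SE 0.070, adjusted p = 0.0207), DTX3L (0.62, SE 0.080, adjusted p = 0.0483), UBE2L6 (0.56, SE 0.070, adjusted p = 0.0461) and PARP14 (0.50, SE 0.061, adjusted p = 0.0461, all edgeR). ISG15 had the largest value, 1.51 (SE 0.24), and an adjusted p of 0.104 in the edgeR test. The number called depended on single libraries. Without scramble replicate 3 it was 10, without scramble replicate 2, SF3B2 replicate 1 or SF3B2 replicate 2 it was 0, and without SF3B2 replicate 3 it was 1. The calls over all genes moved with it, from 50 to 4825 without scramble replicate 3, to 0 in each of the fits with no member called, and to 13 without SF3B2 replicate 3.

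The snaR-A and scramble plasmids use the same promoter. In A549, none of the 10 genes was called between them by edgeR's quasi-likelihood test, its exactTest or DESeq2, where 0.0185% of 21662 genes were called in either direction. At an unadjusted p under 0.05, met by 6.14% of genes, there were 3 members. All 10 values were positive, with a median of 0.34 on the log2 scale and the largest for ISG15 (0.80, 95% interval 0.098 to 1.51, adjusted p = 0.794, edgeR). ISG15 was at 7.01, 8 and 13.4 CPM with snaR-A and at 4.04, 4.77 and 7.43 CPM with scramble, so the groups overlapped. UBE2L6 (18.4, 20.2 and 25.3 CPM) and HERC6 (28.8, 30.5 and 39.7 CPM) were the members without overlap, where 5.71% of genes were higher without overlap. Replicate 3, the library whose labels disagree on the line, was the highest snaR-A library for all 10 genes. PARP14 was at 173 CPM in it and at 115 and 127 CPM in the others, PARP9 at 99 CPM against 61.1 and 65.2 CPM, and USP18 at 24.6 CPM against 15.1 and 16.6 CPM. DTX3L, at 95.8, 104.5 and 140.3 CPM, and HERC5, at 35.1, 39.6 and 48.2 CPM, had the same order of libraries. Without replicate 3 the log2 values were 0.075 (PARP12) to 0.47 (ISG15), and none was called.

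**Figure D3:**
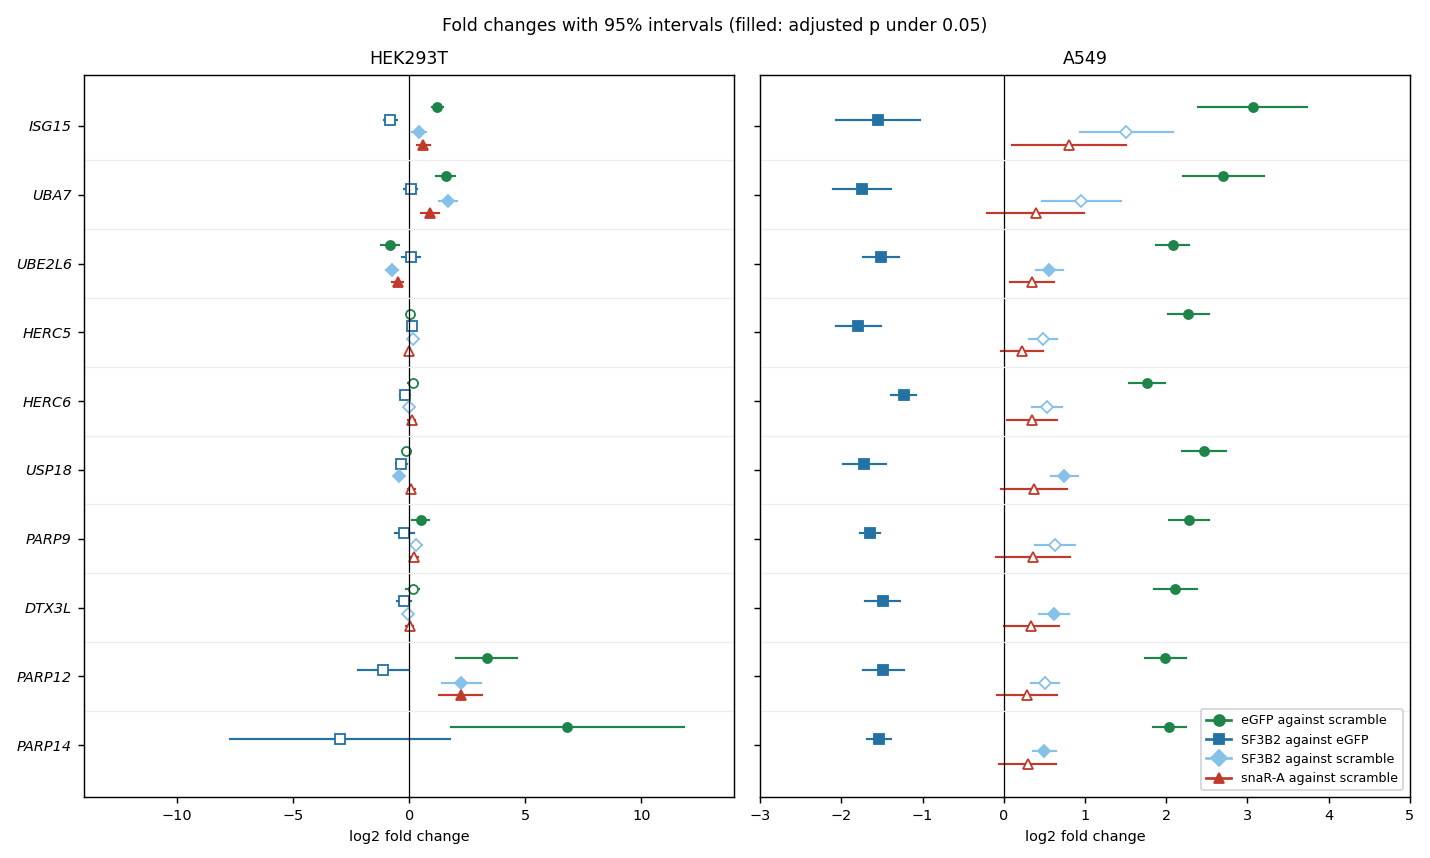
Log2 fold changes of the 10 genes in 4 comparisons within each line, from edgeR's quasi-likelihood fit, with 95% intervals. The horizontal scales of the lines differ, filled symbols have an adjusted p under 0.05, and PARP14 was not tested in HEK293T for the 2 comparisons of SF3B2 and snaR-A with scramble. In A549 the eGFP values lie between 1.76 and 3.06 and the snaR-A values between 0.22 and 0.80, all of the latter open.

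In HEK293T the members did not move in a common direction. With eGFP against scramble, 5 genes were called higher, where 22.9% of 22613 genes were, and 1 lower, where 25.8% were. PARP14 is among the 5, and since it did not pass the filter on low counts in the comparisons of SF3B2 and snaR-A with the same scramble libraries, it could be counted here only through the eGFP libraries, where it was higher. ISG15 had 0.889, 0.923 and 0.972 CPM with scramble and 2.11, 2.25 and 2.11 CPM with eGFP, a 2.325-fold rise (log2 1.22, SE 0.11, adjusted p = 0.000196, edgeR). UBA7 went from 0.968, 0.661 and 0.964 CPM to 2.91, 2.47 and 2.37 CPM, 2.99-fold (log2 1.58, SE 0.18, adjusted p = 0.000455, edgeR). Both sets of libraries were apart. UBE2L6 fell, from 4.83, 5.05 and 4.34 CPM to 2.37, 2.30 and 3.32 CPM (1.78-fold lower, log2 -0.83, SE 0.16, adjusted p = 0.0044, edgeR), so the activating and the conjugating enzyme of the same pathway moved in opposite directions. HERC5, the most abundant member per length in this line, was at 31.4, 31.8 and 30.4 CPM with scramble and 31.3, 32.3 and 31.6 CPM with eGFP, a log2 difference of 0.025 with a 95% interval of -0.068 to 0.12. USP18 and HERC6 did not pass the test either, at -0.12 (-0.3 to 0.06) and 0.16 (-0.05 to 0.36).

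Among the ADP-ribosylation genes of HEK293T, the value of PARP14 rested on eGFP replicate 3, the library with raised A549 markers. PARP14 had 17 and 13 counts in eGFP replicates 1 and 2 and 1479 counts, or 6.27 CPM, in replicate 3, which is 1.35% of its mean in the A549 eGFP libraries. The A549 marker sum of that library was 3.61% of the median over all A549 libraries. These shares have different references and cannot be set against each other. The mean of PARP14 was 464 CPM in the A549 eGFP libraries and 113 CPM in the A549 scramble libraries. PARP14 was called higher with all libraries (adjusted p = 0.0325, edgeR) and was not without replicate 3 (log2 1.60, adjusted p = 0.168, edgeR). PARP12 had 0.392, 0.411 and 1.21 CPM with eGFP and was called with all libraries (log2 3.34, SE 0.56, adjusted p = 0.00232, edgeR) and without replicate 3 (log2 2.60, adjusted p = 0.00116, edgeR). PARP9 had 7, 7.13 and 10.3 CPM, against 5.58, 6.03 and 5.75 CPM with scramble, and was called in both cases, by 0.49 with and 0.29 without replicate 3 on the log2 scale. The calls of PARP9 and PARP14 were also lost without any 1 of the 3 scramble libraries, with adjusted p up to 0.104 for PARP9 (edgeR). DTX3L was at 12.2, 12.2 and 16.1 CPM, and its log2 value went from 0.14 to -0.0036. The log2 values with and without replicate 3 were 1.22 and 1.23 for ISG15 and 1.58 and 1.64 for UBA7. The part of A549 RNA or cells in these values was not tested.

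**Figure D4:**
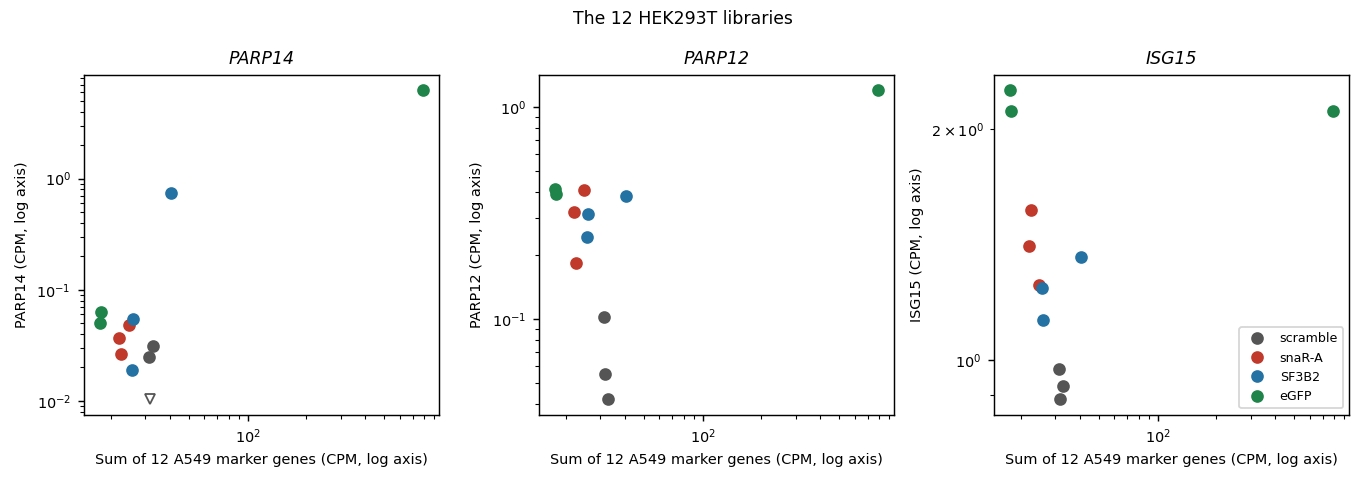
PARP14, PARP12 and ISG15 (CPM, log axis) against the summed CPM of 12 A549 marker genes (log axis) in the 12 HEK293T libraries, coloured by plasmid, with a count of 0 as an open triangle at the limit of 3 counts. The eGFP library at 793 CPM of A549 markers has the highest PARP14 (6.27 CPM) and PARP12 (1.21 CPM), while its ISG15 (2.11 CPM) lies with the other eGFP libraries, at 2.11 and 2.25 CPM.

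Between SF3B2 and eGFP in HEK293T, none of the members was called by edgeR's quasi-likelihood test, where 0.172% of 22623 genes were called in either direction. At an unadjusted p under 0.05, met by 21.7% of genes, there were 4 members. DESeq2 called 2 members and 2092 genes in all, and edgeR's exactTest 1 member and 644 genes in all, against 39 genes here. ISG15 came nearest, at 1.24, 1.13 and 1.36 CPM against 2.11, 2.25 and 2.11 CPM, without overlap (log2 -0.81, SE 0.12, adjusted p = 0.0639, edgeR). Without SF3B2 replicate 3, ISG15 (log2 -0.86, adjusted p = 0.0347) and USP18 (log2 -0.41, adjusted p = 0.0443, edgeR) were called lower, but so were 912 genes in all, against 30 with every library. PARP14 was at 207 counts in that library, against 5 and 12 in the other SF3B2 replicates. Without eGFP replicate 3 the log2 value of PARP14 went from -2.97 to 2.25 and that of PARP12 from -1.11 to -0.37. Neither was called.

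SF3B2 and snaR-A were also compared with scramble in HEK293T. These comparisons and that of eGFP use the same 3 scramble libraries, so they are not independent of each other. PARP14 did not pass the filter on low counts with SF3B2 or with snaR-A, and 9 members were tested. Of these, 3 members were called higher and 2 lower with SF3B2, where 16.8% and 17.5% of 22593 genes were, and 3 higher and 1 lower with snaR-A, where 17.8% and 18.5% of 22667 genes were. UBA7 was at 2.72, 2.73 and 2.78 CPM with SF3B2 (log2 1.67, SE 0.17, adjusted p = 0.00115) and at 1.42, 1.66 and 1.69 CPM with snaR-A (log2 0.89, SE 0.17, adjusted p = 0.0045, edgeR), in each case above all scramble libraries. PARP12 was called higher with both, at 2.24 (SE 0.37) and 2.22 (SE 0.40) on the log2 scale, from levels of at most 0.408 CPM. ISG15 was called higher by 0.43 (SE 0.13, adjusted p = 0.0431) with SF3B2 and by 0.61 (SE 0.12, adjusted p = 0.00607) with snaR-A. The call with SF3B2 was lost whichever of the 6 libraries was left out, with adjusted p from 0.0622 to 0.155 (edgeR). UBE2L6 was lower with both, at 2.68, 2.79 and 2.97 CPM with SF3B2 (log2 -0.75, SE 0.11) and 3.71, 2.996 and 3.26 CPM with snaR-A (log2 -0.50, SE 0.10), and USP18 fell with SF3B2 by 0.44 on the log2 scale (SE 0.10, adjusted p = 0.0138, edgeR). The USP18 call was lost without scramble replicate 1 or 2 or SF3B2 replicate 2, with adjusted p up to 0.0574 (edgeR). USP18 was at 8.81, 9.22 and 10.7 CPM with SF3B2 and at 14, 13.5 and 13.9 CPM with snaR-A, against 12.8, 14.2 and 12.2 CPM with scramble. The members that were not called in either comparison were HERC5, HERC6, DTX3L and PARP9. HERC5 was at 34.2, 34.4 and 37.1 CPM with SF3B2 (log2 0.18, adjusted p = 0.0502, edgeR) and at 31.1, 30.2 and 30.7 CPM with snaR-A. PARP9 was at 7.81, 7.1 and 6.4 CPM with SF3B2 (log2 0.30, adjusted p = 0.0522, edgeR) and at 6.27, 7.04 and 6.71 CPM with snaR-A (log2 0.21, adjusted p = 0.0509, edgeR), and its libraries lay above all scramble libraries in both groups. With SF3B2, PARP9 was called once SF3B2 replicate 3 was left out (log2 0.37, adjusted p = 0.018, edgeR) and HERC5 once SF3B2 replicate 1 was (log2 0.22, adjusted p = 0.0311, edgeR). DESeq2 called both (adjusted p = 0.0119 and 0.0161).

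Whether a plasmid acted differently in the 2 lines was tested as an interaction over the 12 libraries of both lines. For eGFP against scramble, 8 members had a larger value in A549, where 15.6% of 24763 genes did. UBE2L6, which rose in A549 and fell in HEK293T, differed most (2.97, 95% interval 2.52 to 3.42, adjusted p = 1.51e-05), followed by USP18 (2.65, 2.32 to 2.97, adjusted p = 5.56e-06) and HERC5 (2.31, 2.04 to 2.59, adjusted p = 5.53e-06, all edgeR). ISG15 and UBA7, which rose in both lines, also rose more in A549, by 1.91 (SE 0.32) and 1.19 (SE 0.29). PARP12 and PARP14 did not pass, with intervals of -2.67 to 0.079 and -10.0 to 0.53. Without HEK293T eGFP replicate 3 their differences went from -1.30 to -0.55 and from -4.73 to 0.51, and neither passed. For SF3B2 against eGFP, 7 members had a lower value in A549, where 3.52% of genes did, and ISG15, PARP12 and PARP14 did not pass. For SF3B2 against scramble, 5 were higher in A549 (ISG15, UBE2L6, HERC6, USP18 and DTX3L), where 12% of genes were, and PARP12 was lower, where 12.4% were. The ISG15 difference was lost without A549 scramble replicate 2, A549 SF3B2 replicate 1 or 2 or HEK293T SF3B2 replicate 2, with adjusted p up to 0.0622 (edgeR). For snaR-A against scramble, UBE2L6 was higher in A549 (0.84, SE 0.16, adjusted p = 0.00827, edgeR), where 4.79% of genes were, and PARP12 was lower (-1.97, SE 0.44, adjusted p = 0.0156, edgeR), where 6.64% were. The PARP12 difference was lost without HEK293T scramble replicate 1 or 2 or snaR-A replicate 2, with adjusted p up to 0.0616 (edgeR).

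**Figure D5:**
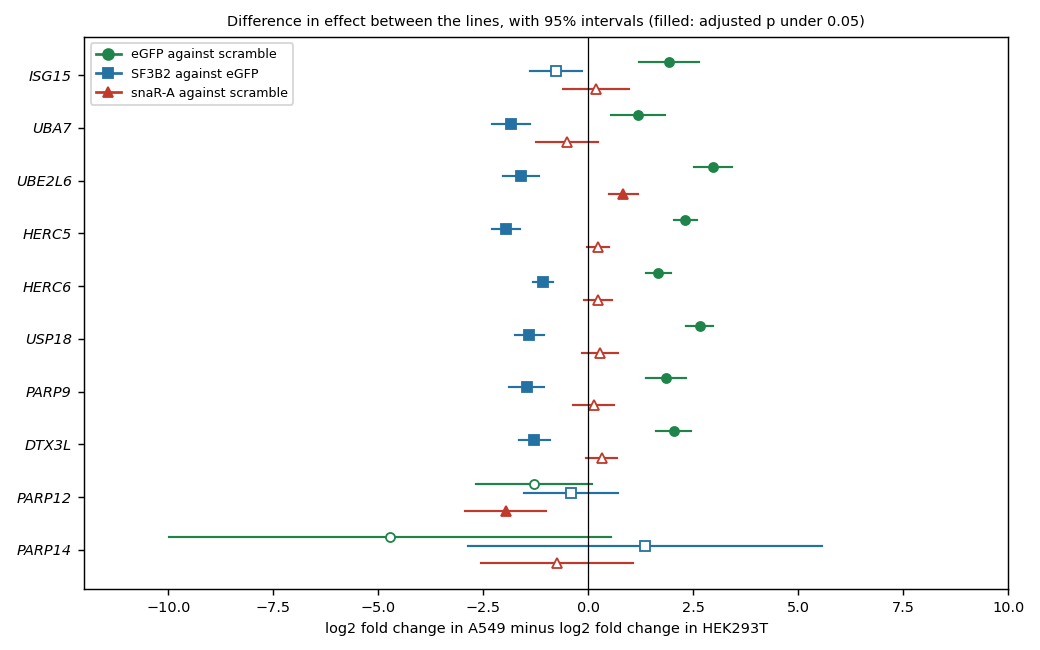
Difference between the lines in the log2 fold change of each gene (A549 minus HEK293T) for 3 comparisons, with 95% intervals, filled where the adjusted p of the interaction was under 0.05. For eGFP against scramble the filled values run from 1.19 (UBA7) to 2.97 (UBE2L6), and the interval of PARP14, with 17, 13 and 1479 counts in the HEK293T eGFP libraries, is the widest.

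Among themselves, the members followed each other closely in A549 and not in HEK293T. Over the 12 A549 libraries, Pearson's r between pairs of members (log2 CPM) ranged from 0.932 to 0.999 with a median of 0.992 over 45 pairs. Over the 12 HEK293T libraries it ranged from -0.922, for UBA7 with UBE2L6, to 0.802, with a median of 0.31, and without eGFP replicate 3 from -0.942 to 0.856, with a median of 0.132. Without scramble replicate 3 and snaR-A replicate 3 the A549 median was 0.995. These values are descriptions, since the libraries fall into 4 plasmid groups and PARP9 and DTX3L overlap in the genome. The genes whose levels were most like the mean of the members in A549, among 12158 genes, were OAS3 (r = 0.999), SHFL (0.999), OAS1 (0.999), OAS2 (0.998) and IFI35 (0.998). OAS1, OAS2 and OAS3 encode oligoadenylate synthetases, which are activated by double-stranded RNA. In HEK293T, among 12405 genes, they were TP53I3 (0.943), ABCC2 (0.942), STAT3 (0.925), RBM47 (0.924) and NRIP1 (0.922). Without eGFP replicate 3 these 5 had r of 0.913, 0.917, 0.906, 0.804 and 0.819 in the same order, and none was among the first 5, which were ZBTB40 (0.958), TASOR2 (0.949), MLLT1 (0.945), HIRA (0.941) and CLASP1 (0.935). Each member enters the mean unscaled, so in HEK293T it leans on the members that vary most. Over all HEK293T libraries PARP14 ran from 0 to 1479 counts and PARP12 from 12 to 285 counts. In A549, 4 of the 5 stayed among the first 5 without scramble replicate 3 and snaR-A replicate 3, with CMPK2 (0.999) in place of IFI35.

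Other genes of the same pathways were read beside the members. Of 7 further ISG15 enzymes and partners, 2 were higher with eGFP than with scramble in A549, where 1.46% of all genes were: STAT2, a transducer of interferon signalling and partner of USP18 (58.5 ± 3.65 to 236 ± 36.3 CPM, SD, n = 3, log2 2.01, SE 0.11), and TRIM25, a ligase that can attach ISG15 (207 ± 8.15 to 515 ± 37.7 CPM, log2 1.31, SE 0.067). Both were lower with SF3B2 than with eGFP, at -1.47 and -1.002 on the log2 scale. IRF1, a transcription factor of the interferon response, was also higher with eGFP (log2 1.30, SE 0.060). In HEK293T, neither STAT2 nor TRIM25 passed the test with eGFP, at -0.14 (SE 0.086) and -0.0042 (SE 0.072), while 2 of the 7 were lower, where 25.8% of all genes were. These were IFNAR2, a chain of the type I interferon receptor (-0.72, adjusted p = 9.85e-05, edgeR), and SKP2, a substrate receptor of a ubiquitin ligase (-0.31, adjusted p = 0.00331, edgeR).

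Of the 14 other members of the PARP family, 3 were higher with eGFP in A549, where 1.46% of all genes were. PARP10, a mono-ADP-ribosyltransferase, went from 2.12 ± 0.276 to 14 ± 2.03 CPM (log2 2.71, SE 0.15, adjusted p = 0.000108, edgeR) and was also higher in HEK293T (0.417 ± 0.0705 to 1.18 ± 0.13 CPM, log2 1.496, SE 0.17). ZC3HAV1, a zinc-finger antiviral protein, rose by 0.71 on the log2 scale in A549 (SE 0.087) and by 0.54 in HEK293T (SE 0.056). The remaining call in A549, named after its value was seen, was PARP4 (log2 0.29, SE 0.044). In HEK293T 5 of the 14 were higher, TIPARP (log2 0.56) and PARP6 (log2 0.53) among them, and 2 were lower, where 22.9% and 25.8% of all genes were. In A549, of 4 deltex genes, 4 other HERC genes and 5 ADP-ribose hydrolases, none was called with eGFP by edgeR's quasi-likelihood test, and 1, the hydrolase ADPRS, had an unadjusted p under 0.05 (log2 0.35, SE 0.076). In HEK293T, 1 of the deltex genes was higher (DTX2, log2 0.39), 1 of the HERC genes was lower (HERC3, log2 -0.37), and of the hydrolases 1 was higher (PARG, log2 0.13) and 2 were lower, OARD1 (log2 -0.34) and MACROD1 (log2 -0.75, adjusted p = 0.000338, edgeR).

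In A549 the interferons themselves were low, and their values are given as a description. Of 5 ligand genes, 4 passed the filter on low counts between eGFP and scramble and were called higher with eGFP. Between the scramble libraries of the lines IFNL1 alone passed it, so the other 3 may have passed only through the eGFP libraries, and nothing is read from this count. IFNB1 went from 0.117 ± 0.0679 to 1.31 ± 0.229 CPM (SD, n = 3, log2 3.47, SE 0.41, adjusted p = 0.00595, edgeR) and IFNL1 from 0.0948 ± 0.0215 to 1.24 ± 0.154 CPM (log2 3.697, SE 0.22, adjusted p = 0.000143, edgeR). IFNL2 and IFNL3 rose by 4.41 (SE 0.64) and 3.88 (SE 0.54) on the log2 scale. IFNL2 and IFNL3 are near-identical genes, so their counts are uncertain. All 4 ligands were lower with SF3B2 than with eGFP, at -2.26 to -1.94 on the log2 scale, where 3.6% of 21581 genes were called lower. This comparison uses the same eGFP libraries, so nothing is read from this count either. With snaR-A against scramble none of the 4 was called, and IFNL1 had an unadjusted p under 0.05 (log2 0.87, SE 0.27, edgeR). In the HEK293T libraries these ligands had at most 5 counts in a library and were not tested.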

How the data were processed

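RNA was rRNA-depleted and poly(A)-enriched and sequenced as stranded libraries for 121 cycles. The authors' processing notes name Trim Galore, Salmon and hg38. The deposited values are estimated counts per Ensembl gene for 24 libraries, not normalized between libraries. The transcriptome release is not given in the sources used here. Of the values, 51% were not whole, and all were rounded before testing.

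For each comparison, genes kept by filterByExpr were TMM-normalized and tested with edgeR's quasi-likelihood test, adjusted by Benjamini-Hochberg over all genes tested (R 4.3.3, edgeR 4.0.16, limma 3.58.1, with DESeq2 1.42.0 as an alternative, and Python 3.11.15, pandas 2.3.3, numpy 2.4.6 and matplotlib 3.10.9). A gene was called at an adjusted p under 0.05, and counted again with an absolute log2 fold change over 1. Per-library levels are CPM normalized over all 24 libraries. Correlations used log2 CPM with a prior count of 2. Differences between lines were tested as an interaction over 12 libraries. The fit recovered 200 of 200 simulated 2-fold changes among 21675 genes for eGFP against scramble in A549, with 12 false calls, and 188 of 200 among 24683 genes for its interaction, with 7 false calls. The simulation gave every gene the same dispersion, changed only genes with ample expected counts, and held no library that stands apart. It checks that the fit runs as intended and does not measure the power or error of the tests on these data. No 2 replicates were copies, since the variance between any pair was at least 18.1 times the Poisson variance.

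All 10 members were named in every comparison. From each other gene list, up to 4 genes with the largest change were named, among those called in eGFP against scramble or SF3B2 against eGFP of either line, and for likeness the 5 genes per line with the highest correlation to the members' mean. The members, lists and comparisons were chosen with earlier results of these data known. NEDD8, IRF9 and snaR-A itself were not analysed here, and some genes of the other lists are not reported here. Other settings were edgeR's exactTest, DESeq2, RLE normalization, scaling by library size only, no filter on low counts, a minimum of 10 counts per library, fits with every library of a line, a block on the replicate number, and fits that drop 1 library at a time. Correlations without the libraries that stand apart were added after seeing the data.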

Additional observations from a re-analysis of the deposited data

Results flagged for a closer look

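The response of a gene to a plasmid differed between the lines, by the interaction term of edgeR's quasi-likelihood fit at an adjusted p under 0.05, for 23 pairs of a gene and a comparison. All values are log2 fold changes in A549 minus those in HEK293T. For eGFP against scramble they were 1.91 for ISG15, 1.19 for UBA7, 2.97 for UBE2L6, 2.31 for HERC5, 1.67 for HERC6, 2.65 for USP18, 1.85 for PARP9 and 2.03 for DTX3L. For SF3B2 against eGFP they were -1.85 for UBA7, -1.61 for UBE2L6, -1.95 for HERC5, -1.08 for HERC6, -1.40 for USP18, -1.47 for PARP9 and -1.29 for DTX3L. For SF3B2 against scramble they were 1.08 for ISG15, 1.31 for UBE2L6, 0.53 for HERC6, 1.18 for USP18, 0.69 for DTX3L and -1.76 for PARP12. For snaR-A against scramble they were 0.84 for UBE2L6 and -1.97 for PARP12. The PARP12 values rest on HEK293T scramble libraries of 16, 12 and 25 counts. The comparisons share libraries, so these values are not independent of each other.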

How the results depend on the processing

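Of 2030 values of single members under other settings, 1898 stayed on their side of the threshold, 62 lost the call, 68 gained it and 2 changed direction and were then called, HERC5 (-0.29) and USP18 (-0.31) between the lines with library size alone. Of the 1898, 26 changed sign, all called under neither setting. That scaling moved the median log2 value of all genes from -0.01 to -0.41 between the lines, from -0.02 to -0.18 for SF3B2 against eGFP in HEK293T and from 0.02 to 0.19 for its difference between the lines. Between SF3B2 and eGFP in HEK293T, where 0 members were called, exactTest, library size alone and at least 10 counts in every library each called 1, DESeq2 and all libraries in one fit called 2, and leaving out replicate 3 of both groups, a choice made after seeing the data, called 1. For snaR-A against scramble in HEK293T, library size alone called 7 (6 higher, 1 lower) in place of 4. For SF3B2 against scramble in A549, where 4 were called, exactTest and DESeq2 called 10, no filter on low counts 9, RLE normalization 1, and all libraries in one fit 0. The cause was not tested.

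With 1 library left out, the calls ranged, in HEK293T, from 4 to 6 for eGFP against scramble (4 without any 1 scramble replicate), 0 to 2 for SF3B2 against eGFP, 3 to 6 for SF3B2 against scramble (3 without scramble replicate 1 or 2 or SF3B2 replicate 2) and 4 to 4 for snaR-A. In A549 they ranged from 10 to 10 for eGFP against scramble, 9 to 10 for SF3B2 against eGFP, 0 to 10 for SF3B2 against scramble and 0 to 0 for snaR-A. Between the lines they ranged from 7 to 9 in scramble and from 8 to 8, 7 to 8, 5 to 7 and 1 to 2 for the differences of eGFP, of SF3B2 against eGFP and against scramble, and of snaR-A.

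The groups share replicate numbers, but same-numbered libraries did not deviate together (median r -0.0038 in A549 and -0.0064 in HEK293T), and only 3 of 12 and 4 of 12 libraries correlated best with one of their own number, so the numbers were not taken as pairs. With a replicate block, 0 members were called for SF3B2 against scramble in A549, 9 in place of 10 for eGFP against scramble (ISG15 at an adjusted p of 0.0644, edgeR) and 4 in place of 5 for SF3B2 against scramble in HEK293T.

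Counts over all genes moved more. For SF3B2 against eGFP in HEK293T, 39 genes were called, and 644 with exactTest, 2092 with DESeq2, 126 with library size alone, 109 with at least 10 counts, 2075 in one fit, 1 with the block and 824 without replicate 3 of both groups. In A549, eGFP against scramble called 322, and 532 with DESeq2, 494 in one fit and 168 with the block. SF3B2 against eGFP called 1516, and 2863, 897 and 654 in the same order. SF3B2 against scramble called 50, and 214 with exactTest, 380 with DESeq2, 27 with RLE, 30 with library size alone, 80 without a filter, 20 in one fit and 0 with the block. For snaR-A 4 were called, and 20 with exactTest, 40 with DESeq2, 12 without a filter, 0 with at least 10 counts, in one fit or with the block, and 32 without replicate 3 of both groups, also added later. The difference between the lines of SF3B2 against eGFP was called for 1507 genes, and for 4052 with DESeq2, 784 without a filter, 3472 in one fit, 418 with the block and 4900 without replicate 3 of both HEK293T groups, and that of snaR-A for 2831, and 4435 with DESeq2. With 1 library left out, the lowest and highest counts were 1 and 1883, 3892 and 8996, and 5131 and 8318 in HEK293T for SF3B2 against eGFP, SF3B2 against scramble and snaR-A, 205 and 326, 379 and 3273, 0 and 4825, and 1 and 53 for the 4 comparisons in A549 in the order above, and 423 and 4527 and 1262 and 4268 for those 2 differences. Library size alone changed the split of calls to 6747 higher and 4208 lower (from 5183 and 5845) for eGFP against scramble, 10 and 116 (from 9 and 30) for SF3B2 against eGFP and 6116 and 2275 (from 4031 and 4198) for snaR-A in HEK293T, 404 and 712 (from 739 and 777) for SF3B2 against eGFP in A549, 6326 and 11688 (from 8822 and 9099) between the lines, and 2226 and 3626 (from 3861 and 2672) and 924 and 292 (from 638 and 869) for the differences of eGFP and of SF3B2 against eGFP. RLE normalization changed it to 1545 and 1264 (from 1186 and 1645) for the difference of snaR-A, DESeq2 to 2560 and 1875 and no filter to 1166 and 1062. For SF3B2 against eGFP in HEK293T the split was 1083 and 1009 with DESeq2, 273 and 371 with exactTest, 1072 and 1003 in one fit and 339 and 485 without replicate 3 of both groups. In A549 it was 312 and 585 in one fit and 239 and 415 with the block, and for SF3B2 against scramble DESeq2 gave 262 and 118 (from 46 and 4).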
